A study of Homo sapiens with 4 samples.

Results

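Receptors linked to resistance of melanoma against BRAF inhibitors were followed through H3K27ac-associated chromatin loops in M14 cells with and without STAG2 knockdown. The members were 10 genes, AXL, EGFR, MET, ERBB3, PDGFRB, IGF1R, FGFR1, EPHA2, KIT and NGFR, out of 19222 protein-coding genes on the 22 chromosomes covered. A loop was assigned to a member when any annotated transcript start of that gene (GENCODE release 44, hg19) lay in one of the loop's 5 kb anchors. In all, 49 of the 42529 distinct loops met this rule, 27 of 27289 in the WT list and 33 of 25621 in the STAG2-KD list. They fell on 7 of the 10 genes, since EGFR, FGFR1 and KIT had no loop at any transcript start in either list.

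M14 is a human melanoma line, here expressing a STAG2 short hairpin RNA under doxycycline control and kept under puromycin. STAG2 belongs to cohesin, the protein ring that holds chromatin loops. Cells given doxycycline for 5 days were STAG2-KD (the knockdown), and cells of the same line without it were WT, so doxycycline itself differed between the groups along with the knockdown. HiChIP ligates neighbouring pieces of chromatin cut by MboI and then selects those that carry acetylated histone H3 lysine 27 (H3K27ac), a mark of active promoters and enhancers. The labels named 4 samples, 2 per group, and 1 loop list per group was analysed. The lists gave positions only, so read depth, loop strength and STAG2 level were unknown, no difference had a replicate check and no test was possible. All intervals below are exact Clopper-Pearson 95% intervals and cover the counting of loops only. Among marker genes, 7 of 8 melanocyte lineage genes had a loop at a start (29 loops in WT and 18 under knockdown, none at TYR), against 0 of 4 epithelial and 0 of 1 endothelial genes, 1 of 3 fibroblast genes (DCN) and 2 of 3 immune genes.

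Of the 10 members, 9 are receptor tyrosine kinases. Most receptors of this class, though not all, dimerise upon binding a ligand, phosphorylate each other and pass the signal to the RAS-ERK and PI3K-AKT pathways. NGFR, the low-affinity neurotrophin receptor, has no kinase domain and marks neural crest-like melanoma cells. When a BRAF inhibitor blocks the mutant kinase in melanoma, a raised level of these receptors or of their ligands can restore ERK signalling or carry survival signals through AKT.

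The sequences behind the loops are shown for a few anchors on which the results below turn. The first pair lies directly upstream of the canonical starts of MET and IGF1R (200 bases each, plus strand of hg19), where the loops of the principal promoter were anchored. They were rich in G and C, at 69.5% for MET with 22 CpG and 81.5% for IGF1R with 39 CpG.
MET, chr7:116312050-116312249: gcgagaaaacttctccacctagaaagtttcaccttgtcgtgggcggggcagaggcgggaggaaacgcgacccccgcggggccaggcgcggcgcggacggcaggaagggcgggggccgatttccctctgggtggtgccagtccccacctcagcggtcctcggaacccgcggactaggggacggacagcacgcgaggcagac
IGF1R, chr15:99191568-99191767: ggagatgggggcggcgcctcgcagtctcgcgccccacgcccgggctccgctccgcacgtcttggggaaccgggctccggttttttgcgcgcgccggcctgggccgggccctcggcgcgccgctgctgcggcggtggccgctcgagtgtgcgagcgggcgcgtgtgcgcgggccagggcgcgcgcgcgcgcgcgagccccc

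The next set holds matches to TGANTCA, shown in capitals within 20 bases of flank. These letters were taken as a loose form of the AP-1 (JUN and FOS family) site, in which any middle base counted. A match is therefore not always the AP-1 consensus, and binding was not measured. AXL has 3 such matches in 246 bases of the anchor that carried all its loops, and a 147-base stretch of a MET partner anchor, which carried loops in STAG2-KD only, holds 2. The other lines are the anchor shared by PDGFRB and CSF1R (minus strand), the most connected bin of the IGF1R gene and the internal IGF1R starts with the most loops. None of these windows overlapped an annotated exon.
AXL start anchor, chr19:41731588-41731833: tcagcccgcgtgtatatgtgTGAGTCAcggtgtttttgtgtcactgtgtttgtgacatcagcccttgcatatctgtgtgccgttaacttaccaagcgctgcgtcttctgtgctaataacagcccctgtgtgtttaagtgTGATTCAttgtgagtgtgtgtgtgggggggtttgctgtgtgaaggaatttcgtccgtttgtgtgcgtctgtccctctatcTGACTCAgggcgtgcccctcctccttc
MET partner anchor, chr7:116357791-116357937: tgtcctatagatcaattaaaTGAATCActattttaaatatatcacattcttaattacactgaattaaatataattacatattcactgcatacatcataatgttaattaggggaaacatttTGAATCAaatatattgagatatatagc
PDGFRB and CSF1R anchor, chr5:149492676-149492722: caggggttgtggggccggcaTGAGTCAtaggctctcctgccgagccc
IGF1R most connected bin, chr15:99331577-99331623: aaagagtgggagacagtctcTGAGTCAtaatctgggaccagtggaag
IGF1R first internal start, chr15:99419899-99419945: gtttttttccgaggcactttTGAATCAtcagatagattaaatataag
IGF1R second internal start, chr15:99440192-99440238: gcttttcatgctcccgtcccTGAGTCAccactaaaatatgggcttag

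The last pair holds matches to a strict core of the motif of the insulator protein CTCF, again in capitals. The first is in the upstream partner of IGF1R that looped to an internal start in both lists, and the second is in the EPHA2 start anchor (minus strand).
IGF1R upstream partner, chr15:99062465-99062516: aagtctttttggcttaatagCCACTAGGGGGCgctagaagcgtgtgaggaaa
EPHA2 start anchor, chr1:16472116-16472167: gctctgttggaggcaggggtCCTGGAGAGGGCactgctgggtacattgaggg

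These letters were common in anchors of any kind. In the MITF letters given below any base also counted at the N, so a match is not always a MITF site. Over all 30601 distinct anchors of both lists, and on either strand, TGANTCA was found in 80.6%, the MITF letters TCANGTGA in 80.4%, the TEAD letters GGAATGT in 50.5% and the CTCF core in 15.2%. Of the 11 receptor start anchors with a loop, TGANTCA was in 9, TCANGTGA in 7, GGAATGT in 4 and the CTCF core in 3 (the canonical IGF1R start, EPHA2 and NGFR). Of the 40 partner anchors, the same letters were in 30, 35, 22 and 7, and of the 40 receptor start bins without a loop they were in 31, 29, 27 and 2. The receptor start anchors had a median GC content of 51.8% (41.6 to 64.3) against 44.1% over all anchors. MboI sites (GATC), which limit where a ligation can be seen, numbered 13 per receptor start anchor at the median against 14 over all anchors, with the fewest, 7, at the canonical IGF1R start.

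Across the 7 receptor genes with loops, most loops were found in 1 state only. A loop was called shared when both anchors were the same 5 kb bins in both lists, and of the 49 loops 11 were shared, 16 WT-only and 22 STAG2-KD-only. Shared loops formed 40.7% of the WT loops (22.4 to 61.2) and 33.3% of the STAG2-KD loops (18.0 to 51.8), and the same shares over all loops at protein-coding starts were 41.2% and 43.4%. Among loops private to 1 list, 57.9% at the receptors were STAG2-KD-only (40.8 to 73.7) and 47.7% at all protein-coding starts, which lies inside that interval. A loop at a start was found for 39.1% of all protein-coding genes in WT, 36.8% in STAG2-KD and 44.5% in either list, and for 7 of the 10 receptors in each list.

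By gene, 6 of the 7 receptors had more loops in STAG2-KD than in WT, namely AXL, MET, PDGFRB, IGF1R, EPHA2 and NGFR, and ERBB3 alone had fewer. Over the 8562 protein-coding genes with a loop, 34.4% had more loops in STAG2-KD, 43.5% had fewer and 22.1% had as many. The 6 differences were of 1 or 2 loops each, and 34.4% of genes with a loop differed by at least 1 loop and 14.1% by at least 2 in this direction. A shared loop was kept by ERBB3, PDGFRB, IGF1R and NGFR, that is 4 of 7, against 55.5% of all genes with a loop. AXL, MET and EPHA2 had loops in both lists but none in common, as did 14.8% of all genes with a loop. Both of these background shares count genes with loops in 1 list only, which cannot share a loop, whereas all 7 receptors had loops in both lists. The shares are therefore not like for like, and they were not matched for the number of loops.

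**Figure D1:**
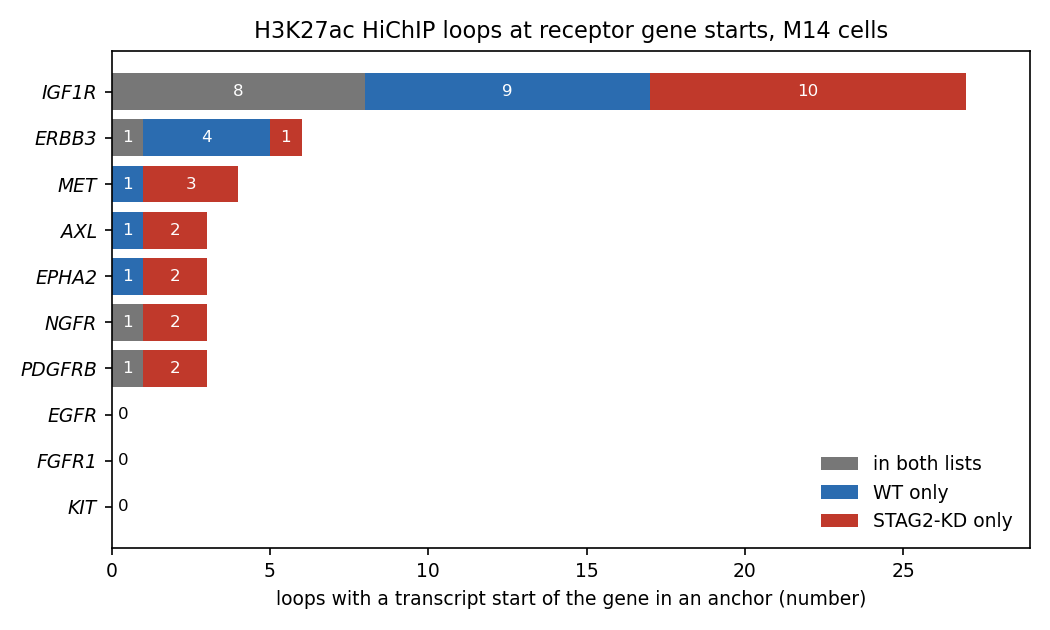
Number of H3K27ac HiChIP loops (x axis) with a transcript start of each receptor gene (y axis) in an anchor, divided into loops in both lists (grey), WT only (blue) and STAG2-KD only (red), 1 list per group. IGF1R holds 27 of the 49 loops, 8 of them in both lists, and EGFR, FGFR1 and KIT are at 0.

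IGF1R, the receptor of insulin-like growth factors that signals through IRS adaptors to PI3K, held 27 of the 49 loops, 17 in WT and 18 under knockdown. IGF1R was among 23 protein-coding genes (0.120%) with 27 or more, and 4.19% had 10 or more. Of the 27 loops 8 were shared, 9 private to WT and 10 private to the knockdown, so the nearly equal totals came from partly different loops. The near equality held for this definition of a start, since IGF1R had 26 loops in WT and 36 under knockdown when a start in the neighbouring bin also counted, and 1 and 3 with coding transcripts only. The gene lies at chr15:99191768-99507759 on the plus strand, spans 316 kb and has annotated starts in 10 bins, more than any other member, so more anchors could qualify for it. Without IGF1R the members had 10 loops in WT and 15 under knockdown, 3 of them shared.

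**Figure D2:**
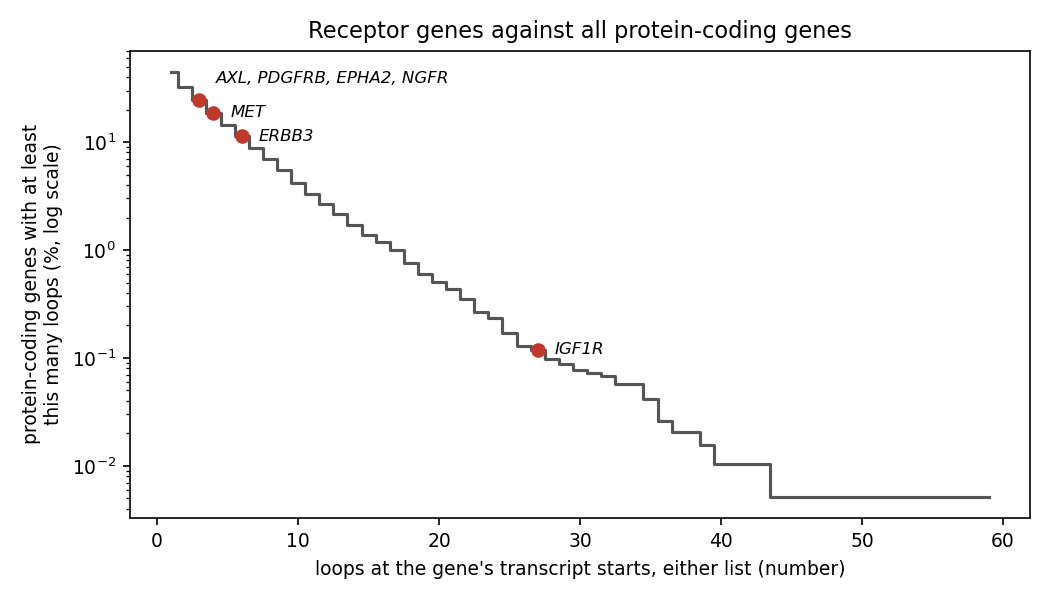
Percentage of protein-coding genes (y axis, log scale) with at least the given number of loops at their transcript starts in either list (x axis), with the 7 receptors that had loops as red points. IGF1R with 27 loops lies where 0.120% of genes are, ERBB3 with 6 loops at 11.3%, MET with 4 at 18.6% and the other 4 receptors with 3 loops at 24.5%.

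The loops of IGF1R were anchored at 4 of its 10 start bins, and mostly not at its promoter. The canonical start bin (chr15:99190001-99195000) had 1 loop in WT and 3 under knockdown, none of them shared. In WT it met a bin 95 kb downstream inside the gene. In STAG2-KD it met bins 130 kb and 140 kb downstream inside the gene, and a bin 130 kb upstream that holds the start of the pseudogene FAM169BP. That upstream bin (chr15:99060001-99065000) was looped to an internal IGF1R start over 355 kb in both lists, the longest loop at an IGF1R start, and carried 2 loops in WT and 5 under knockdown in all.

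The internal bins chr15:99415001-99420000 and chr15:99440001-99445000, 226 kb and 251 kb past the canonical start, held 30 of the 35 calls of the gene over both lists. The former had 7 loops in WT and 9 under knockdown, of which 5 were shared. The latter had 8 in WT and 6 under knockdown, of which 3 were shared. Only transcripts without an annotated coding sequence start in these bins, and no coding IGF1R transcript starts there. A further internal bin, chr15:99275001-99280000, had 1 loop in WT and none under knockdown.

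Past the 3′ end of the gene, 4 of the 7 loops of the internal bins were shared. Both internal bins met the bin at chr15:99620001-99625000 in both lists, and the former also met bins at 99600001 and 99650001, the last of them within SYNM, which encodes the intermediate filament protein synemin. STAG2-KD alone added loops to bins at 99560001 and 99580001, which carried no loop of any kind in WT, and a loop from the latter internal bin to 99600001. Towards the 5′ end, 6 WT-only loops joined the internal bins to bins 71 to 166 kb past the canonical start, and 3 STAG2-KD-only loops joined them to bins at 20.7, 106 and 196 kb. All 9 partner bins of the WT-only IGF1R loops were anchors of other loops in the knockdown. No partner of IGF1R held the start of a protein-coding gene (0 of 27, interval up to 12.8%), whereas 18 lay in the IGF1R gene itself and 8 in no protein-coding gene. The 27 loops met 19 distinct partner bins, so they are not independent and the interval covers counting only.

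**Figure D3:**
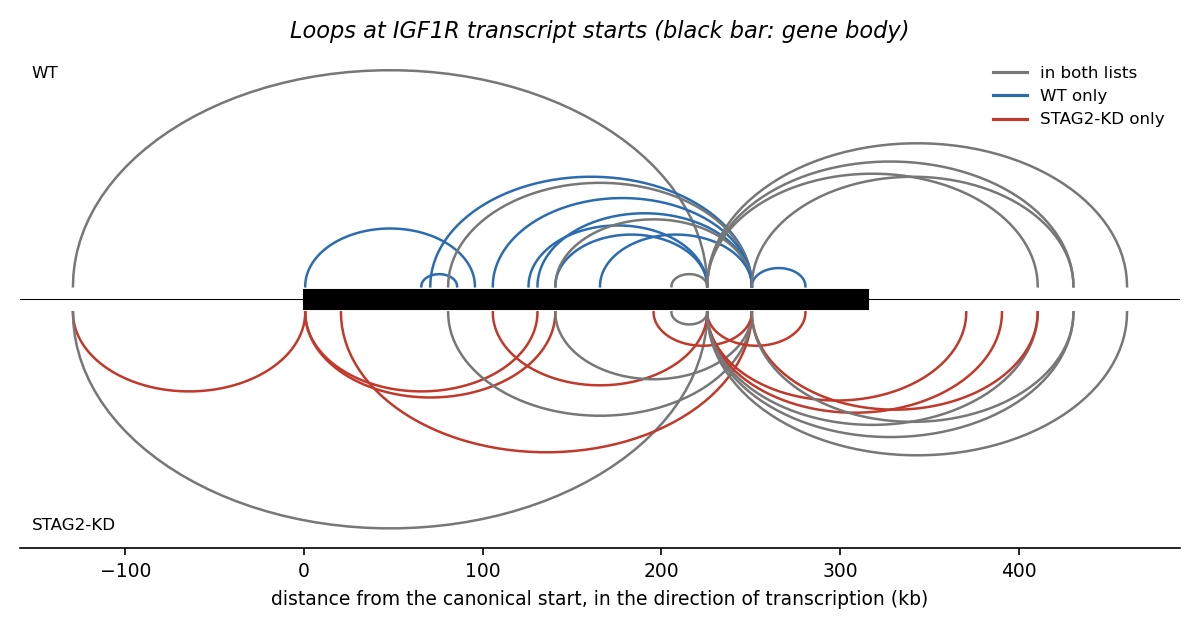
Loops at IGF1R transcript starts as arcs between anchor centres, by distance from the canonical start in kb (x axis), WT above and STAG2-KD below the line, with arc height in proportion to loop length and the gene body as a black bar. Most arcs end at the internal starts 226 and 251 kb past the canonical start, and the canonical start has 1 arc in WT and 3 under knockdown.

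Loops anchored anywhere in the gene body, at a start or not, were found for 54% of all protein-coding genes and for 9 of the 10 receptors, all but KIT. Of genes with a body loop 35.9% had more of them under knockdown, as did 7 of the 9 receptors (AXL, EGFR, MET, PDGFRB, IGF1R, FGFR1 and EPHA2), while ERBB3 had fewer and NGFR as many. Counted in this way, IGF1R had 40 loops in WT and 57 under knockdown, of which 18 were shared. An excess of 17 or more body loops under knockdown was found in 0.0866% of the 10391 protein-coding genes with a body loop. This share, like those given below for body loops of MET, EGFR and FGFR1, was not matched for gene length, and a longer gene covers more bins. Within the gene body the number of bins in use was 24 in WT and 25 under knockdown, and these were not all the same bins. Anchors outside the gene, which some of the loops also had, are left out of these numbers. The most connected bin, 141 kb past the canonical start, carried 10 loops in WT and 12 under knockdown with 7 shared. The bin at 80.7 kb carried 2 loops in WT and 9 under knockdown, the bin at 20.7 kb 2 and 6, the bin at 106 kb 1 and 5, and the bin at 166 kb 3 and 7. The bin at 55.7 kb moved the other way, with 4 loops in WT and none under knockdown.

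**Figure D4:**
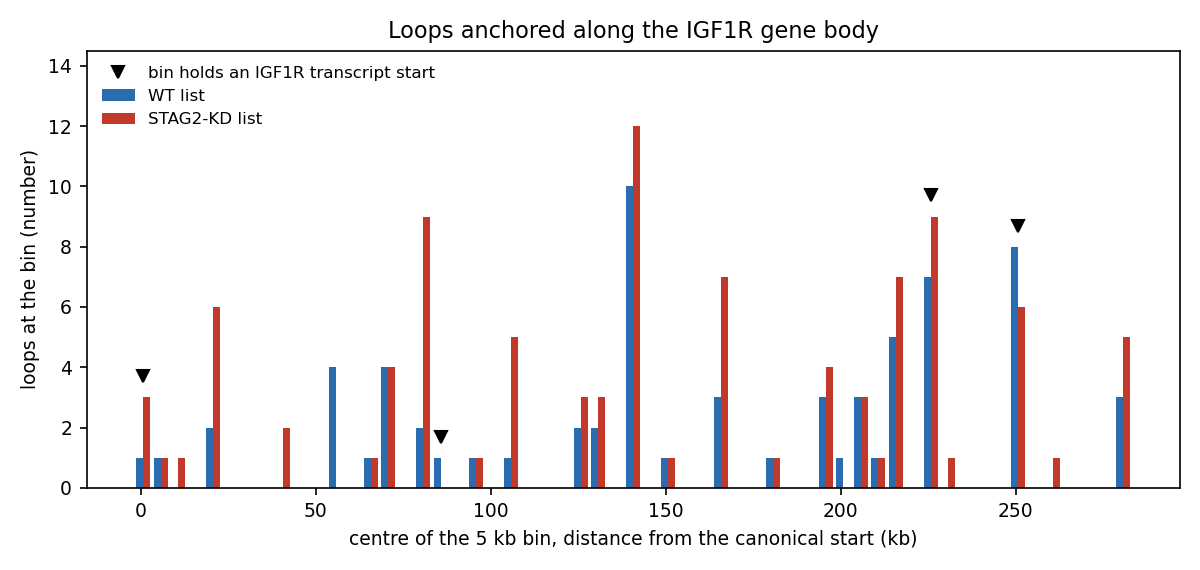
Number of loops (y axis) at each 5 kb bin of the IGF1R gene body that was an anchor, by distance of the bin centre from the canonical start in kb (x axis), for the WT list (blue) and the STAG2-KD list (red). Triangles mark bins that hold an IGF1R transcript start. The bin at 80.7 kb has 2 loops in WT and 9 under knockdown, and the bin at 55.7 kb has 4 and 0.

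MET, the receptor of hepatocyte growth factor, had 1 loop in WT and 3 under knockdown, all at its canonical start (bin chr7:116310001-116315000, gene at chr7:116312250-116438431 on the plus strand). The WT loop reached 25 kb into the gene. The STAG2-KD loops reached 45 kb and 110 kb into the gene and 130 kb to a bin just past its 3′ end. These 3 partner bins carried no loop in WT and 2, 3 and 3 loops in STAG2-KD, while the WT partner was an anchor in both lists. Over its whole body MET had 1 loop in WT and 7 under knockdown, none shared, and 2.09% of genes with a body loop had an excess of 6 or more. One of the 7 joined the 3′ part of MET to the start of CAV1, which encodes the membrane protein caveolin-1, over 245 kb.

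NGFR had 1 loop in WT and 3 under knockdown at the single bin that holds all its starts (chr17:47570001-47575000, gene at chr17:47572655-47592370 on the plus strand). The loop to a bin 55 kb upstream was shared. The STAG2-KD-only loops reached 95 kb upstream and 20 kb downstream to the last part of the gene itself. All 3 partner bins were anchors in both lists, and none held a protein-coding start. The 3′ bin of NGFR met the bin 95 kb upstream of the start in WT only and PHB1, which encodes prohibitin, in WT only, so that over the whole gene the counts were 4 in WT and 4 under knockdown, with 2 shared.

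AXL, a receptor of the vitamin K-dependent ligands GAS6 and protein S, had 1 loop in WT and 2 under knockdown, none shared. All were anchored at chr19:41730001-41735000, which holds an internal protein-coding start, and the bin of the canonical start beside it had none (gene at chr19:41725128-41767671 on the plus strand). In WT it met a bin 35 kb downstream with the start of HNRNPUL1, which encodes an RNA-binding protein. In STAG2-KD it met the start of CCDC97 85 kb downstream, and a bin with the starts of ACTMAP and SNRPA 475 kb upstream, past the starts of 13 other protein-coding genes. That was the longest of the 49 loops. SNRPA encodes a protein of the U1 spliceosomal particle, and its bin carried 8 loops in each list.

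EPHA2, a receptor of the membrane-bound ephrin-A ligands, had 1 loop in WT and 2 under knockdown, none shared. They were anchored at an internal bin (chr1:16470001-16475000) in which only a transcript without a coding sequence starts, 10.1 kb past the canonical start, and the canonical bin had none (gene at chr1:16450832-16482564 on the minus strand). At this bin the directions differed between the lists, on 1 loop in WT and 2 under knockdown. In WT the partner lay 65 kb away on the 3′ side of the gene, in a bin with 3 loops in WT and none under knockdown. In STAG2-KD the partners lay 20 kb and 35 kb away on the 5′ side, outside any protein-coding gene. A further STAG2-KD-only loop, from the neighbouring bin without a start, ran 25 kb to the 3′ side. Over its whole body EPHA2 thus had 1 loop in WT and 3 under knockdown, with partners on both sides under knockdown.

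**Figure D5:**
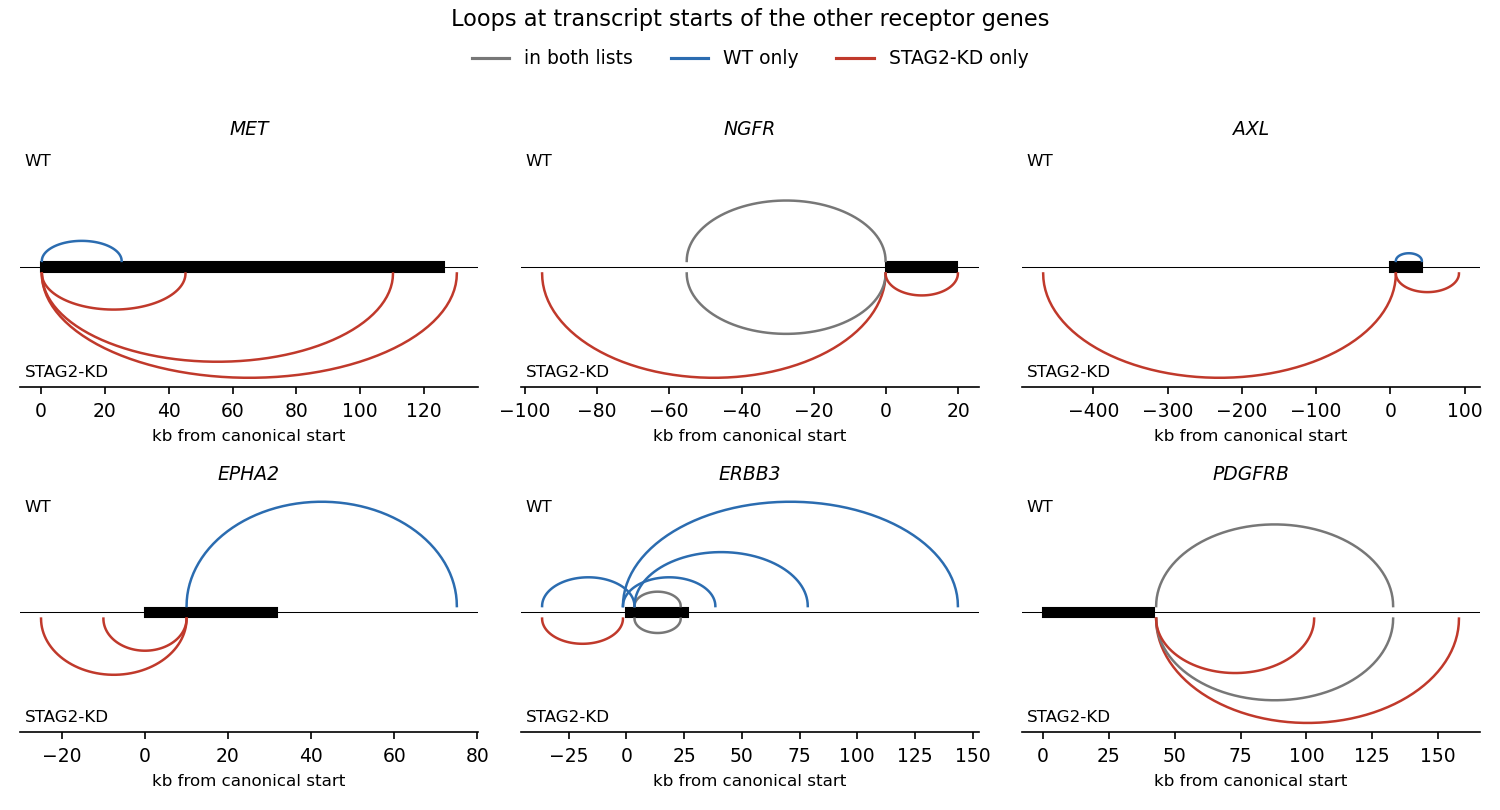
Loops at transcript starts of MET, NGFR, AXL, EPHA2, ERBB3 and PDGFRB as arcs between anchor centres, by distance from the canonical start in kb in the direction of transcription (x axes differ), WT above and STAG2-KD below the line, gene bodies as black bars, arc height scaled to the longest loop of each gene. MET, NGFR and PDGFRB each have 1 loop in WT and 3 under knockdown, and ERBB3 has 5 and 2.

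ERBB3, a neuregulin receptor that needs a partner kinase such as ERBB2 to signal, was the member with fewer loops in STAG2-KD, 5 in WT and 2 under knockdown with 1 shared. Of all genes with a loop, 7.93% had at least 3 fewer under knockdown. The gene lies at chr12:56470583-56497289 on the plus strand among closely spaced genes, and each of its loops met a bin with a protein-coding start. The shared loop spanned 20 kb from an internal start to the bin of PA2G4, which encodes the ERBB3-binding protein EBP1. The WT-only loops met ESYT1, RPL41 and ZC3H10 in 1 bin at 40 kb, MYL6 and MYL6B at 75 kb, NABP2 and RNF41 at 145 kb and RPS26 at 40 kb on the other side. RNF41 encodes a ubiquitin ligase known to mark ERBB3 for degradation. The STAG2-KD-only loop also met RPS26, from the neighbouring ERBB3 bin over 35 kb, and became shared when anchors could differ by 1 bin. All 4 WT-only partner bins were still anchors in STAG2-KD, with 12 loops in WT and 11 under knockdown at the bin of NABP2 and RNF41. The 3′ bin of ERBB3, which also holds the PA2G4 start, met the bin of NABP2 and RNF41 over 120 kb in both lists. It also met RPS26 over 60 kb in both lists, and another bin with an ESYT1 start over 25 kb in STAG2-KD only. Over its whole body ERBB3 had 8 loops in WT and 6 under knockdown, with 4 shared.

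PDGFRB, the platelet-derived growth factor receptor beta, had 1 loop in WT and 3 under knockdown, but the assignment is ambiguous. The bin (chr5:149490001-149495000) lies at the 3′ end of PDGFRB, 42.9 kb from its canonical start, and holds the start of a PDGFRB transcript without a coding sequence together with a start of CSF1R, the receptor of macrophage colony-stimulating factor. CSF1R therefore had the same 3 loops, and none of the 5 other PDGFRB start bins had any (gene at chr5:149493402-149535435 on the minus strand). The shared loop spanned 90 kb to a bin inside HMGXB3, and the STAG2-KD-only loops met another CSF1R start at 60 kb and the start of HMGXB3 at 115 kb. In its body PDGFRB had 1 further loop, STAG2-KD-only, to TCOF1 over 215 kb.

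EGFR, FGFR1 and KIT had no loop at any of their 5, 9 and 7 start bins in either list. EGFR had no loop anywhere in its body in WT and 3 under knockdown, of 20, 45 and 65 kb, all with both anchors inside the gene between 45.8 and 116 kb past the canonical start. A change from none to 3 or more was found in 1.08% of genes with a body loop. FGFR1, the fibroblast growth factor receptor 1, had none in WT and 2 under knockdown, both at a bin near its 3′ end that also holds a start of its neighbour LETM2, and 3.22% of genes with a body loop went from none to 2 or more. KIT, the stem cell factor receptor of melanocytes, had none in its body, and loops with both anchors within 500 kb of the gene numbered 2 in WT and none under knockdown, where the nearest anchor lay 429 kb from the canonical start. A loop missing from a list can also be one just short of the loop caller's limit, which cannot be told apart here.

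Restricted to the canonical start of each gene, 4 receptors had a loop, and their loops numbered 5 in WT and 10 under knockdown with 1 shared. MET, IGF1R and NGFR each had 1 loop in WT and 3 under knockdown there, and ERBB3 had 2 and 1. A loop at the canonical start was found for 37.9% of all protein-coding genes, and of those genes 33.5% had more in STAG2-KD and 43.2% fewer. AXL, EPHA2 and PDGFRB, with all their loops at internal starts, dropped out.

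Loop distance, taken from anchor start to anchor start, ran from 20 to 475 kb at the receptors. The median was 90 kb for WT receptor loops and 115 kb for knockdown ones, against 90 and 85 kb at all protein-coding starts. By class it was 170 kb for shared, 80 kb for WT-only and 112.5 kb for STAG2-KD-only receptor loops, against 75, 100 and 100 kb at all protein-coding starts. The 8 shared loops of IGF1R had a median of 182.5 kb, and the 3 shared loops of the other receptors had a median of 55 kb. With IGF1R left out, the medians were 47.5 kb in WT and 60 kb under knockdown.

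The partner held a protein-coding start in 6 of 27 receptor loops in WT (22.2%, interval 8.62 to 42.3) and 6 of 33 in STAG2-KD (18.2%, 6.98 to 35.5), where 51.2% and 50.4% of all loop ends at protein-coding starts had one. None of these partners belonged to IGF1R, and for the other receptors the shares were 6 of 10 and 6 of 15. Bins of private receptor loops were often anchors in the other list too, and so were those of private loops over all genes. The start bin was an anchor in the other list for 15 of 16 loops private to WT and 22 of 22 private to the knockdown, and the partner bin for 14 of 16 and 15 of 22. Over all genes the start bin was so for 76.0% and 78.6%, and the partner bin for 62.8% and 63.4%. For partner bins IGF1R had 9 of 9 private to WT and 8 of 10 private to the knockdown. The other receptors had 5 of 7 and 7 of 12.

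Likeness between genes was measured as the Jaccard index, the number of partner bins in common over the number of distinct partner bins of both genes. PDGFRB was most like CSF1R (0.75), with which it shares its anchor, followed by TIGD6 (0.2). ERBB3 was most like CD63 (0.312, 5 partner bins in common) and SMARCC2 (0.273, 3 in common). For the others the highest values rested on 1 or 2 bins, with ENSG00000268797 at 0.333 and B9D2 and EGLN2 at 0.25 for AXL, PHB1 at 0.2 and ZNF652 at 0.143 for NGFR, and ARHGEF19 at 0.125 for EPHA2. No protein-coding gene shared a partner bin with MET or IGF1R.

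Of 30 genes that encode ligands of these receptors, 7 (23.3%) had a loop at a start, 2 in WT and 7 under knockdown, and of the 7, 5 had more in STAG2-KD, 1 fewer and 1 as many. Over all protein-coding genes 44.5% had a loop, and of those 34.4% had more and 43.5% fewer, which is also the background for the lists that follow. FGF1, a ligand of FGFR1, had none in WT and 4 under knockdown, and HBEGF and EPGN, both ligands of EGFR, had none in WT and 1 each under knockdown. PROS1, which encodes the AXL family ligand protein S, and EFNA4 also had none and 1. EFNA5, a ligand of EPHA receptors, had 10 in WT and 6 under knockdown, with 2 shared. KITLG, the ligand of KIT, had the same single loop in both lists.

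Of 49 other receptor tyrosine kinases, 15 (30.6%) had a loop, 9 with more and 6 with fewer in STAG2-KD, and their distinct loops numbered 34 in WT and 45 under knockdown. The collagen receptors DDR1 and DDR2 had the most, 8 and 13 loops for DDR1 and 10 and 13 for DDR2 in WT and STAG2-KD, with 5 and 7 shared. ALK had none in WT and 3 under knockdown, whereas EPHB3, EPHB4 and ROR1 each had 2 in WT and none under knockdown. TYRO3, of the AXL family, had 3 in WT and 1 under knockdown, and MST1R, of the MET family, had 2 and 4. CSF1R, with 1 and 3, counts here with the loops of the anchor it shares with PDGFRB. INSR, the insulin receptor and closest relative of IGF1R, had 1 and 2.

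Of 26 adaptors and effectors of receptor signalling, 20 (76.9%) had a loop, with 7 having more, 6 fewer and 7 as many in STAG2-KD. IRS1, an adaptor of IGF1R, had 13 loops in WT and 19 under knockdown with 5 shared, and GAB2 had 13 and 10. Of 14 negative regulators of receptors 10 (71.4%) had a loop, 4 with more, 4 with fewer and 2 with as many. ERRFI1, an inhibitor of the EGFR kinase, had 7 and 10 loops, and PTPN1, a phosphatase that acts on IGF1R and the insulin receptor, had 4 and 8. ANKS1A went the other way with 5 loops in WT and 3 under knockdown, as did SOCS2 with 5 and 4.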

How the data were processed

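H3K27ac HiChIP loops of M14 cells were compared between WT and STAG2-KD, assigned by sample titles. Per the study's methods, the authors aligned reads to hg19 with HiC-Pro and called loops with FitHiChIP on peaks from hichip-peaks. For changed loops they filtered on agreement between replicates and tested differences with the diffloop package. That comparison was not used here, where presence or absence in a list was counted instead. Versions are not given in the sources used here. The deposited lists hold anchor positions only, in base pairs and with no read count or score, so depth and precision per loop are unknown. Each list is filed under replicate 1, and whether it merges both replicates was not stated.

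Starts were read as counted from 0 and are printed counted from 1. Carriage returns were removed from the STAG2-KD list. Gene starts were those of GENCODE release 44 (lifted to GRCh37), and sequence was read from GRCh37. Motifs were matched exactly on both strands. Body loops have an anchor bin overlapping the gene. No model was fitted. Python 3.11.15 was used with pandas 2.3.3, numpy 2.4.6 and scipy 1.17.1, and matplotlib 3.10.9 drew the figures. Matching was tested on simulated data with 3 planted values, all recovered.

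The members, gene lists and comparisons were chosen with earlier results of these data known. Genes named are the members, protein-coding genes at partner bins, up to 3 genes most like each member and genes of the lists (ligands, other receptor tyrosine kinases, adaptors and effectors, negative regulators, cell type markers), from which those shown were picked after their values were seen. The printed sequences were also chosen after the values were seen. PECAM1, an endothelial marker, had no start on the chromosomes and annotation used. Alternatives were other definitions of a gene start, tolerances of 1 and 2 bins, a limit of 1000 kb and leaving out each gene. Some genes of these lists and 1 sequence are not reported here.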

Additional observations from a re-analysis of the deposited data

How the results depend on the processing

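The outcome rested mostly on which transcript starts counted, by construction, since fewer or more bins then qualify. With protein-coding transcripts only, the receptors had 9 loops in WT and 13 under knockdown, 2 of them shared, 7 WT-only and 11 STAG2-KD-only, so that 22.2% and 15.4% were shared and 66.7% of WT partners held a protein-coding start. With the 5′ end of the gene only, and likewise with the canonical start only (added after seeing the data), there were 5 and 10 loops, 1 shared (20% and 10%), 4 WT-only and 9 STAG2-KD-only, at 4 genes in WT and 4 under knockdown. With a start in the neighbouring bin also allowed, there were 39 loops at 7 genes in WT and 61 at 8 genes under knockdown. Of these, 17 were shared, 22 WT-only and 44 STAG2-KD-only. IGF1R held 26 of them in WT and 36 under knockdown, and FGFR1 then had 2, at a bin that holds a LETM2 start. No share over all protein-coding genes is given for this setting or for coding transcripts only, so these counts have no background. Leaving out IGF1R gave 10 and 15 loops, 3 shared, 7 WT-only and 12 STAG2-KD-only, and protein-coding starts at 60% and 40% of partners. Leaving out ERBB3 gave such partners for 4.55% of WT and 12.9% of knockdown loops, the opposite order to the full set. Shared loops numbered 12 with a tolerance of 1 bin and 15 with 2 bins, which is 44.4% and 55.6% of WT loops and 36.4% of knockdown loops under both, and 15 and 12 loops were then WT-only and 21 STAG2-KD-only under both. No receptor loop was longer than 1000 kb, so that limit changed nothing at the receptors. Without bins that hold another protein-coding gene's start, a setting likewise not planned beforehand, PDGFRB had 0 loops in both lists.

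No paired analysis was possible because of the single list in each group. For the same reason leaving out a replicate was not run, and a stricter limit on loop score was not run because the lists hold no score. A single list per group leaves the variation between cultures unknown, and the unknown depth limits every absence.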

Other observations

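Loops with both anchors inside the gene or within 500 kb of its ends put the counts at the starts into their surroundings. Around MET there were 39 loops in WT and 48 under knockdown with 12 shared, around IGF1R 47 and 63 with 21 shared, and around NGFR 24 and 29 with 13 shared. Around ERBB3 there were 78 and 68 with 34 shared, the most of the 10, and around AXL 23 and 17 with 10 shared, so that AXL had more loops at its start in STAG2-KD and fewer around it. PDGFRB had 34 and 36, EPHA2 21 and 24, and FGFR1 21 and 20. EGFR had 3 and 4, with the anchor nearest to its canonical start 233 kb away in WT and 43.3 kb away in STAG2-KD. The shared loop near EGFR joined the start of SEC61G, which encodes a subunit of the protein translocation channel of the endoplasmic reticulum, to a bin past the 3′ end of EGFR over 495 kb.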
